A study of Mus musculus with 16 samples.

Results

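The genes of chromosome 19 were followed across immortalised mouse embryonic fibroblast (MEF) lines that differ in how much RNA this chromosome gives. Members were the protein-coding genes on chromosome 19 of mm10 with a mean value of 4 or more over all 16 lines, without Ankrd1, which the rule left out. This gave 455 of the 718 protein-coding genes of the chromosome in the table, and 455 of the 12968 protein-coding genes of the whole genome above the same floor. Of the other chromosome 19 genes, 262 lay under the floor, and 108 of these were listed at 0 in every line. Around the floor, Ch25h (3.92), Best1 (3.93) and Entpd1 (3.97) were just outside, and Cnnm1 (4.10), Ccdc87 (4.21) and Gda (4.22) were just inside. As the floor is a mean over all lines, a gene that is low in the MEF-2 lines can pass it through the MEF-1 lines alone.

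MEF-1 and MEF-2, the parental lines, came from sibling C57BL/6J embryos at E13.5, 1 embryo each, and were immortalised by passaging through crisis. MEF-1 is male and MEF-2 is female. From each parental line, 7 clonal lines were grown from single sorted cells, and total RNA depleted of rRNA was sequenced with 1 library per line, giving 16 lines without any treatment. The clonal lines are cultures grown separately from 1 embryo per set, so that the p-values measure the spread between clones and not between embryos. The labels give no number of chromosome copies. The methods of the study, which read DNA coverage, set chromosomes 12, 18 and 19 aside as aneuploid in at least 1 line, and no DNA was analysed here. The study's account of that coverage is at odds with itself on which set of lines has the additional chromosome 19, so that the RNA difference cannot be tied to a stated number of copies. Embryo, sex, passage history and copy number cannot be told apart in the comparison of MEF-1 with MEF-2.

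Aneuploidy is a number of chromosomes that is not a whole multiple of the haploid set, and it is common in mouse fibroblasts that have passed through crisis. An additional copy of a chromosome adds a template for each of its genes, so that transcript levels of these genes tend to rise with the number of copies. The step from 2 to 3 copies would be a log2 difference of 0.585 if RNA rose in full proportion. Single genes can lie above or below such a step because each promoter is also regulated by factors encoded elsewhere, and subunits of protein complexes are often adjusted after translation, which RNA does not show. The ratio of 3 to 2 is used below only as a scale.

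The deposited values are regularised log (rlog) values on the log2 scale, and from each line the middle value of its 19 autosome medians was subtracted. A difference is the mean of the MEF-1 clonal lines minus the mean of the MEF-2 clonal lines (n = 7 each) on this scale, and the parental difference is the MEF-1 minus the MEF-2 parental value (1 library each, no error). Calls are from limma with Benjamini-Hochberg adjusted p under 0.05 over all 12968 genes. The dosage band runs from 0.5 to 1.5 times the 3 to 2 step, or 0.29 to 0.88. The table holds no counts and the depth of the libraries is unknown. All 11 fibroblast markers were above the floor (median 14.6), whereas 1 of 5 epithelial (Cdh1), 1 of 4 endothelial (Tek), 1 of 4 blood (Cd68) and 1 of 4 neural (Map2) markers were. Means of the fibroblast markers ran from 4.74 (Thy1, at 2.72 in its lowest line) to 20.9, and Map2 had a mean of 12.1.

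The genes of the interferon-induced Ifit family, a cluster on chromosome 19 whose products bind foreign RNA, are shown first because close neighbours of this family differed widely in size of change. The stretches below are from RefSeq promoters (GRCm38.p6), printed 5′ to 3′ in the direction of the gene. Capitals mark matches to the core of the interferon-stimulated response element, searched as GAAA, any 2 bases and GAAA again, which lie on the opposite strand in all 4 genes and so read TTTC, 2 bases and TTTC here.
Ifit1 (chr19:34640773-34640825, plus strand): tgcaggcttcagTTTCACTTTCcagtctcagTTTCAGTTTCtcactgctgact
Ifit1bl1 (chr19:34602051-34602084, minus strand): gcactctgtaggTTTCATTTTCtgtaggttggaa
Ifit3 (chr19:34583361-34583428, plus strand): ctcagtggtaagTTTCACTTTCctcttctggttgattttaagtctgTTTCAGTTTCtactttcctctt
Ifit3b (chr19:34607757-34607824, plus strand): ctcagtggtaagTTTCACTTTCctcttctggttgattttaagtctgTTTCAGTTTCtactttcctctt

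The stretches of Ifit3 and Ifit3b differed at 0 of 68 bases. These 2 genes are near-identical copies, so that the division of reads between them is uncertain. The search covered 250 bases before each start on both strands, and Ifit2, the fifth gene of the family with a promoter in the table, had no match in this window. The motif was found in 2.98% of all 32851 promoters and in 2.70% of the 371 members that matched a promoter. A match is a description of the letters and not a bound site.

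Chromosome 19 as a whole was higher in every MEF-1 than in every MEF-2 line. The median over the members, relative to the mean of the 14 clonal lines, was 0.173 ± 0.0234 over the MEF-1 clones and −0.200 ± 0.0236 over the MEF-2 clones (SD, n = 7 each). The MEF-1 clonal lines lay between 0.139 and 0.205 and the MEF-2 clonal lines between −0.241 and −0.170. The difference was 0.373, or 1.29-fold (exact permutation test over lines, two-sided, p = 0.000583, the smallest that the 3432 splits allow). As the chromosome was chosen with its shift known, this p only describes how far the lines stand apart. In the bulk RNA of a line, all cells carrying a moderate excess and some cells carrying a larger one cannot be told apart.

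**Figure D1:**
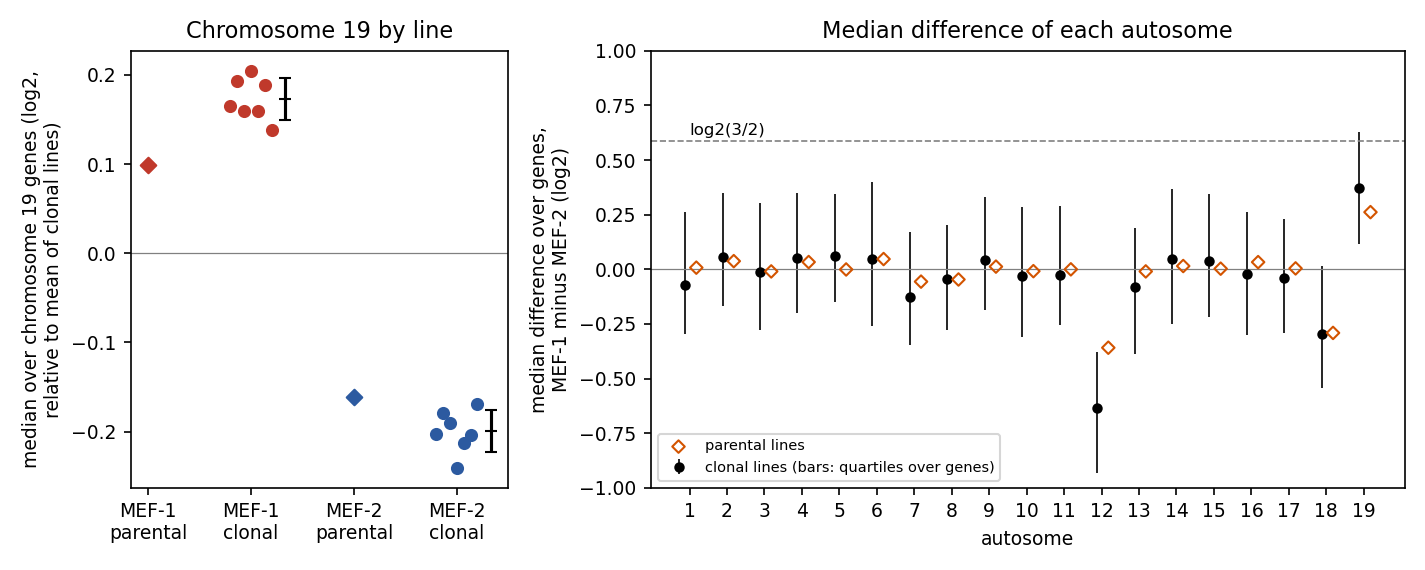
Left, the median over the 455 chromosome 19 members in each line (log2, relative to the mean of the 14 clonal lines), with circles for clonal lines, diamonds for parental lines and bars for mean ± SD (n = 7). Right, the median difference of MEF-1 minus MEF-2 over the genes of each autosome (log2), with filled circles and quartile bars for the clonal lines and open diamonds for the parental lines. Chromosome 19 is the highest of the 19 autosomes in both comparisons.

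The parental lines stood between the sets of clones. The MEF-1 parental line was at 0.0990, which is 0.040 under its lowest clone, and the MEF-2 parental line was at −0.162, which is 0.0080 above its highest clone. Member by member, between 292 and 317 of the 455 genes in each MEF-1 clonal line were above all 7 MEF-2 clonal lines. This number was 268 in the MEF-1 parental line and 102 in the MEF-2 parental line.

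The median of the members' differences was 0.37 (1.29-fold) between the clonal lines, which is 63.3% of the 3 to 2 step on the log2 scale. Between the parental lines it was 0.26 (1.20-fold), or 44.7% of the step. The corresponding medians of the 16 autosomes other than 12, 18 and 19 ran from −0.125 to 0.0624 between the clonal and from −0.0564 to 0.0469 between the parental lines. Morn4 lay closest to the members' median. Its MEF-1 clonal lines were at 10.08, 10.36 and 10.71 (lowest, median and highest) and its MEF-2 clonal lines at 9.85, 10.05 and 10.27, a difference of 0.37 ± 0.10 (SE) with some overlap between the sets, and 0.03 between the parental lines.

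The members spread widely around their median, with an interquartile range close to that of genes elsewhere and a smaller SD. Their differences had quartiles of 0.12 and 0.63, with 5% of the genes under −0.42 and 5% above 1.61, and ran from −1.80 to 3.95. The interquartile range was 0.514 in the members and 0.556 in the 11252 genes of the 16 other autosomes, and the SD was 0.661 and 0.839. Of the genes of the other autosomes, 5% were under −0.96 and 5% above 1.46. Differences above 0 were found for 377 members (82.9%), against 49.5% of the genes of the other autosomes. Between the parental lines, 364 members (80.0%) were above 0, against 50.2%. The median standard error of a member's difference was 0.0815, well under the interquartile range. The SD between clones had a median over members of 0.158 for MEF-1 and 0.134 for MEF-2.

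**Figure D2:**
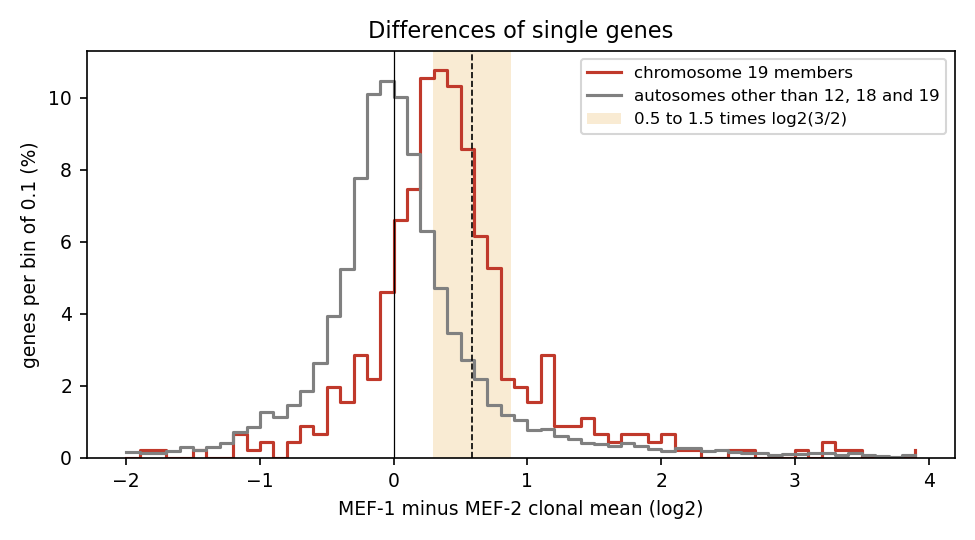
Share of genes (%) per bin of 0.1 in the difference of MEF-1 minus MEF-2 clonal means (log2), for the 455 chromosome 19 members and the 11252 genes of the autosomes other than 12, 18 and 19. The members peak to the right of 0 with a median of 0.37, left of the dashed line at the 3 to 2 step (0.585), and the shaded area is the dosage band.

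Of the members, 306 (67.3%) were called higher in the MEF-1 clonal lines, where 28.8% of all genes tested were, and 32 (7.03%) were called lower, where 30.6% of all genes tested were. The other 117 were not called. Of the 455 members, 255 overlap another annotated gene and 179 do so in their exons, and reads of such genes may be shared. In 206 members (45.3%, against 14.5% of all genes tested) all 7 MEF-1 clonal lines lay above all 7 MEF-2 clonal lines, and in 11 (2.42%, against 13.7%) all lay below. Set against the 3 to 2 step itself, the 95% interval of the difference held 0.585 in 146 members, lay wholly under it in 242 (53.2%) and wholly above it in 67.

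A second fit asked which genes moved away from the shift of their own chromosome, by taking each line's chromosome median from the values. In this fit 133 members (29.2%) were called above and 136 (29.9%) below chromosome 19, while 29.8% and 29.9% of all genes tested, and 29.7% and 29.8% of those on the 16 other autosomes, were called above and below their own chromosomes. The shares on chromosome 19 were thus near those of the genome. Of the 306 members called higher, 146 were not called against their chromosome, 133 were called above it and 27 below it.

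Genes that followed dosage in the sense of the band, that is, called higher with a difference from 0.29 to 0.88, numbered 187 (41.1%, against 13.7% of all genes tested). Their median difference was 0.50 between the clonal and 0.31 between the parental lines, which the fit did not use. The parental difference was above 0 in 175 of the 187 (93.6%, against 80.0% of all members). It was within the band in 106 of the 187, and in 175 of all 455 members. The clonal sets did not overlap in 136, where all MEF-1 clones lay above all MEF-2 clones in 45.3% of all members. As the class was chosen by its clonal difference, this separation is no further support.

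The members of this class with the highest mean rlog values (not divided by gene length) included Tm9sf3 and Ganab. Tm9sf3 (ENSMUSG00000025016, minus strand of chromosome 19, 41210844 to 41263997), a membrane protein of the Golgi, was at 15.60, 15.67 and 15.74 (lowest, median and highest) in the MEF-1 clonal and 15.16, 15.22 and 15.26 in the MEF-2 clonal lines. The sets were far apart, with a difference of 0.46 ± 0.04 (SE), or 1.37-fold (limma, adjusted p = 1.25e-07), and the parental lines, at 15.61 and 15.19, differed by 0.42. Ganab (ENSMUSG00000071650, plus strand, 8898071 to 8916672), the catalytic subunit of glucosidase II in the endoplasmic reticulum, was at 15.42, 15.49 and 15.58 against 15.02, 15.08 and 15.18. Its difference was 0.40 ± 0.04 (SE) between the clonal and 0.39 between the parental lines.

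Ahnak (ENSMUSG00000069833, plus strand, 8989284 to 9076914), a very large scaffold protein under the plasma membrane, was at 18.30, 18.62 and 18.93 in the MEF-1 clonal and 17.55, 17.83 and 18.17 in the MEF-2 clonal lines. Its difference of 0.81 ± 0.11 (SE, 1.75-fold, limma, adjusted p = 1.67e-05) was above that of its chromosome by 0.44 (adjusted p = 0.00224 in the second limma fit), and the parental difference was 0.23.

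Also among them were Atl3, a GTPase that shapes the endoplasmic reticulum (0.44 ± 0.05, SE), Myof, a ferlin of membrane repair (0.55 ± 0.10), Sh3pxd2a, a podosome scaffold (0.43 ± 0.07), and Slc3a2, the heavy chain of amino acid transporters (0.50 ± 0.13). The sets did not overlap for Atl3 and Myof and overlapped for Sh3pxd2a and Slc3a2. Parental differences were 0.33, 0.21, 0.20 and 0.08 in the same order.

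**Figure D3:**
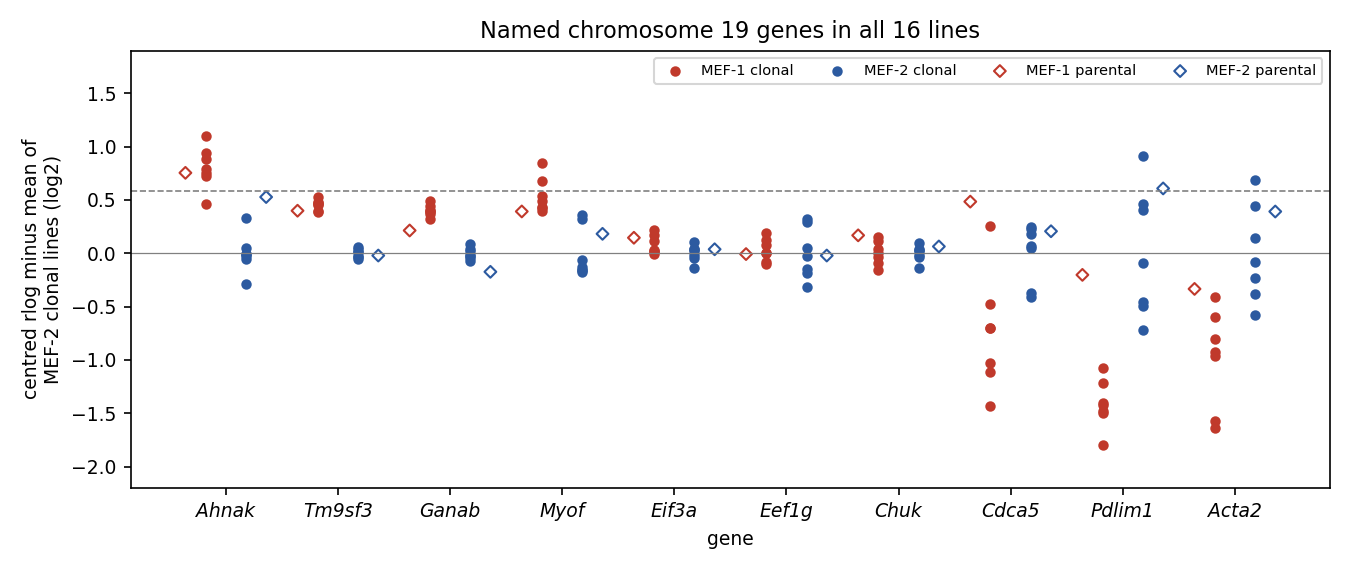
Centred rlog values of 10 named members in all 16 lines, minus the mean of the MEF-2 clonal lines (log2), with filled circles for clonal lines and open diamonds for parental lines. The MEF-1 clones of Tm9sf3, Ganab and Myof lie above all MEF-2 clones, those of Eif3a, Eef1g and Chuk overlap with them, and those of Pdlim1 lie below them. The dashed line is the 3 to 2 step.

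Members above the band numbered 69 (15.2%, against 8.91% of all genes tested), with a median difference of 1.32 and a median parental difference of 0.72. The parental difference was above 0 in 67 of the 69 (97.1%, against 80.0% of all members). They had lower values than the genes within the band, with a median mean rlog of 8.83 against 11.45, and a larger median standard error (0.209 against 0.0683). The 6 largest differences belonged to genes with low values in the MEF-2 clonal lines, with medians from 2.54 to 5.81.

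Pyroxd2, a mitochondrial oxidoreductase-like protein, had the largest clonal difference of all members, with 1.89 between the parental lines. Its MEF-1 clonal lines were at 7.66, 8.86 and 9.33 and its MEF-2 clonal lines at 4.31, 4.69 and 5.39, giving 3.95 ± 0.24 (SE, limma, adjusted p = 4.48e-09), and its exons overlap those of another annotated gene. Dock8, an exchange factor for Cdc42, differed by 3.40 ± 0.39 (SE) and by 3.74 between the parental lines. Rbp4, the plasma carrier of retinol, was at 5.45, 6.94 and 8.72 against 3.24, 3.62 and 4.06, a difference of 3.23 ± 0.43 (SE), with 1.92 between the parental lines. Cnnm1, Nrxn2, a neurexin of synapses, and Gda, the guanine deaminase, differed by 3.39, 3.22 and 3.04, with parental differences of 1.03, 1.29 and 1.99. In all 6 genes the 7 MEF-1 clonal lines lay above the 7 MEF-2 clonal lines, which is no support, as they were chosen as the largest differences. Cnnm1, Gda, Rbp4 and Dock8 had MEF-2 clonal means under the floor of 4 (2.55, 2.68, 3.62 and 3.88) and passed it through the MEF-1 lines. The clones of MEF-1 varied widely in Cnnm1 (4.36 to 7.65) and Dock8 (5.83 to 9.08), and the exons of Cnnm1 and Nrxn2 overlap other genes too. Rlog values of low genes are shrunken towards the mean of the gene, so that differences of low genes are understated.

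The Ifit family fell into 2 of the classes. Ifit1 (ENSMUSG00000034459, plus strand, 34640871 to 34650009), with 2 matches in the stretch printed above, was at 7.85, 8.38 and 10.02 in the MEF-1 clonal and 6.17, 6.67 and 7.44 in the MEF-2 clonal lines. The sets did not overlap, and the difference was 1.86 ± 0.32 (SE, 3.64-fold, limma, adjusted p = 0.000157), with 0.91 between the parental lines. Ifit3b and Ifit3, the copies with the same stretch, differed by 1.77 ± 0.36 and 1.15 ± 0.34 (SE), with MEF-1 clonal lines from 8.96 to 10.54 and from 10.57 to 11.96, and MEF-2 clonal lines from 6.81 to 9.53 and from 8.86 to 11.38. Both sets overlapped in these 2 genes. Ifit1bl1, with 1 match, was 2.83-fold higher in the MEF-1 clonal lines (SE 0.27 on the log2 scale). Ifit2, the neighbour without a match, was at 11.53, 11.72 and 12.33 against 11.22, 11.38 and 11.52 and differed by 0.40 ± 0.11 (SE), within the band and 0.03 from the shift of the chromosome. These 5 genes were chosen as a family after their values were known.

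A further 50 members (11.0%, against 6.18% of all genes tested) were called higher but lay under the band, with a median difference of 0.24 and a median parental difference of 0.20. The first gene along the chromosome, Ighmbp2, a helicase, belonged to these, with 10.74, 10.78 and 10.90 in the MEF-1 clonal against 10.48, 10.63 and 10.69 in the MEF-2 clonal lines and a difference of 0.19 ± 0.05 (SE). The last, Csf2ra, a receptor subunit for the growth factor GM-CSF, lay above the band at 1.70 ± 0.21 (SE), with no overlap between the sets.

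Genes that did not follow dosage were taken as those whose upper 95% bound was under the band, since a missed threshold alone does not show that a gene stayed level. This held for 109 members (24.0%, against 60.1% of all genes tested), of which 8 were called higher, 69 were not called and 32 were called lower. The 69 had a median difference of −0.038, a median parental difference of 0.041 and a median mean rlog of 11.63, close to that of the genes within the band. Another 48 members were not called and had an upper bound inside or above the band, so that their response was not determined.

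The 6 members with the highest mean rlog among those with a bound under the band, leaving aside those called lower, were as follows. Ddb1, the adaptor of CUL4 ubiquitin ligases in DNA damage recognition, was at 16.47, 16.67 and 16.89 in the MEF-1 clonal and 16.57, 16.70 and 16.85 in the MEF-2 clonal lines. Its sets lay on top of each other, with a difference of −0.05 (95% interval −0.19 to 0.09), and the parental lines differed by −0.01. Eef1g, a subunit of the elongation factor eEF1, was at 16.06, 16.17 and 16.35 against 15.85, 16.14 and 16.48, a difference of 0.03 (−0.17 to 0.24). Cfl1, the actin-severing protein cofilin, differed by −0.03 (−0.22 to 0.17), and Pgam1, a glycolytic enzyme, by −0.06 (−0.25 to 0.13).

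Eif3a (ENSMUSG00000024991, minus strand, 60761117 to 60790658), the largest subunit of the initiation factor eIF3, was at 15.47, 15.51 and 15.69 against 15.34, 15.50 and 15.58 and differed by 0.08 (−0.03 to 0.19), with 0.11 between the parental lines. These 5 genes were all called below their chromosome. The sixth, the tankyrase Tnks2, was called higher at 0.18 (0.09 to 0.26) with sets that did not overlap, and was below its chromosome by −0.19.

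The 32 members called lower had a median difference of −0.48 and a median parental difference of −0.096, which was above 0 in 10. Pdlim1 and Acta2 were among the 6 largest. Pdlim1, a PDZ and LIM domain protein of actin fibres, was at 9.37, 9.75 and 10.10 in the MEF-1 clonal and 10.45, 11.08 and 12.08 in the MEF-2 clonal lines, a difference of −1.41 ± 0.22 (SE, 0.38-fold, limma, adjusted p = 8.33e-05) without overlap, and −0.81 between the parental lines. Acta2, the smooth muscle actin of contractile fibroblasts, was at 16.58, 17.30 and 17.81 against 17.64, 18.14 and 18.91 and differed by −0.99 ± 0.23 (SE), with −0.73 between the parental lines and some overlap of the sets.

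Catsperz, a subunit of the sperm calcium channel whose exons overlap those of Kcnk4, had the most negative called difference at −1.78 ± 0.22 (SE), with −2.15 between the parental lines. Tmem151a differed by −1.15 ± 0.13 (SE) and Lipo3, a lipase-like gene, by −1.05 ± 0.25 (SE). Parental differences were −0.35 and −0.06. The lowest value of any member, −1.80 for Rps12-ps3, was not called. Clonal lines of both sets fell either between 5.64 and 5.73 or between 11.79 and 12.29, and its name marks it as a copy of a ribosomal protein gene, so that its reads are uncertain.

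**Figure D4:**
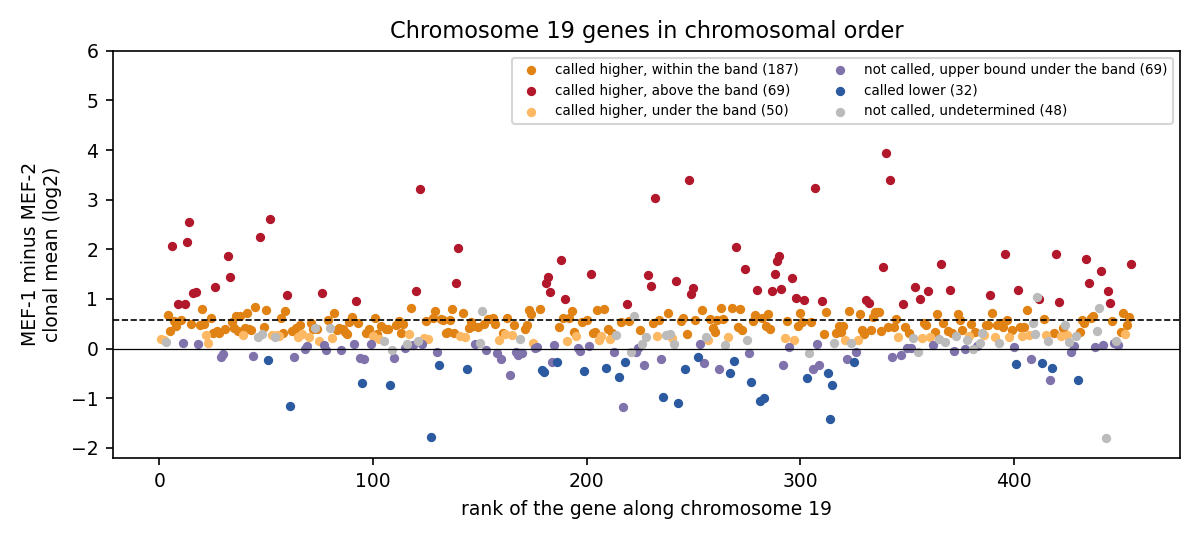
Difference of MEF-1 minus MEF-2 clonal means (log2) of the 455 members in their order along chromosome 19, coloured by class with the number of genes in each. Genes of different classes lie side by side, although the last 10 Mb (10 genes) hold 0 called lower. The dashed line is the 3 to 2 step.

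The differences showed little order along the chromosome. In windows of 10 Mb the medians ran from 0.30 (46 genes) to 0.55 (43 genes), and each of the 7 windows was above the range of the other autosomes. Across genes, which are not independent, neighbours had a Pearson r of 0.0791 over 454 pairs, and the Spearman rho of the difference with position was −2.1e-05. The rho of the difference with the mean rlog was −0.19. The median difference was 0.80 in the 34 members with a mean rlog from 4 to 6 and 0.28 in the 33 members at 14 or more. The genes of the 16 other autosomes moved in the same direction, with medians of 0.37 and −0.067 in these ranges. Members of 8 to 10, 10 to 12 and 12 to 14 had medians of 0.45, 0.33 and 0.37, where the genes elsewhere had −0.045, −0.029 and −0.0069.

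Promoter letters were counted by class, without a test. The median number of CpG dinucleotides in the 250 bases before the start was 17 for members within the band, 10 above it and 17 for members called lower, with 16 over all genes tested. TATAAA was found in 8.50%, 12.5% and 8.33% of these promoters, and in 6.01% of those of all genes tested. The interferon element searched above (GAAA, any 2 bases, GAAA) was in 2.61% of the 153 promoters within the band, 7.14% of the 56 above it and 0 of the 24 of genes called lower, with 2.47% over all genes tested, and the 4 matches above the band are the Ifit genes printed above. CCAAT was in 43.8%, 32.1% and 29.2% and GGGCGG in 60.1%, 53.6% and 54.2% of the same 3 classes, with 36.9% and 60.7% over all genes tested. The CArG box, the element of serum response factor, was in 1.31%, 1.79% and 0 of them and in 5.26% of the 57 promoters of genes not called with a bound under the band, with 1.12% over all genes tested. The same 57 promoters held TATAAA in 5.26%, CCAAT in 43.9%, GGGCGG in 57.9% and the interferon element in 1.75%. The searches covered both strands, and the classes hold few matches each. The rho of the difference with CpG number was −0.14 over the members with a promoter.

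The members were also grouped by role, and differences between the groups were not tested. The shares called are to be read against 67.3% higher and 7.03% lower over all members, and 28.8% and 30.6% over all genes tested. In the second fit 29.9% of all members were called below their chromosome, and the groups ran from 11.8% (NF-kB, interferon and cell death) to 59.1% (segregation, replication and repair). Of the mitochondrial and respiratory chain genes, 17 of 22 were called higher (77.3%, against 67.3% of all members) and 0 lower, with median differences of 0.26 between both clonal and parental lines, where all members had 0.37 and 0.26. In the second fit 9 of them (40.9%, against 29.9% of all members) were called below their chromosome and 3 above it, among these Cox8a and Atad1. Cox8a, a subunit of cytochrome c oxidase, was at 12.43, 12.63 and 12.85 in the MEF-1 clonal against 11.75, 11.90 and 12.07 in the MEF-2 clonal lines, a difference of 0.72 ± 0.06 (SE), with 0.65 between the parental lines. Atad1, an ATPase that removes misplaced proteins from the outer membrane, rose by 0.56 ± 0.04 (SE), with 0.54 between the parental lines. The peroxidase Prdx5 rose by 0.21, and Sfxn3, a serine carrier, was not called at 0.19 (adjusted p = 0.067). Cox8a was chosen after its value was seen.

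Of 24 genes of transcription, splicing and RNA processing, 12 were called higher (50%, against 67.3% of all members), 2 lower (8.33%, against 7.03%) and 10 not, with a median of 0.14 between the clonal and 0.16 between the parental lines, and 13 were called below their chromosome (54.2%, against 29.9% of all members). Sf3b2, a subunit of the SF3b splicing complex, was at 14.61, 14.64 and 14.79 against 14.31, 14.40 and 14.45, a difference of 0.29 ± 0.04 (SE). Kdm2a, a demethylase that binds CpG islands, rose by 0.42, and Hnrnpul2, an RNA-binding protein, by 0.29. The 2 called lower were Pum3 (−0.17) and Rrp12 (−0.27), both of ribosome biogenesis, and neither was called without MEF-2 clonal line 2 or without line 7 (0 called lower in each case), whereas 3 genes were called lower without MEF-1 clonal line 5 or without line 6.

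Of the genes of translation and protein folding, 11 of 14 were called higher (78.6%, against 67.3% of all members) and 0 lower, with a median of 0.31. In the second fit 5 of the 14 (35.7%, against 29.9% of all members) were called below their chromosome and 3 above it. In the group of NF-kB, interferon and cell death, 14 of 17 were called higher (82.4%, against 67.3%) and 1 lower (5.88%, against 7.03%), with a median of 0.49. Rela, a transcription factor subunit of NF-kB, was at 12.89, 13.11 and 13.19 against 12.61, 12.64 and 12.70 and rose by 0.42 ± 0.05 (SE), and Nfkb2 and the ubiquitin ligase Trim8 rose by 0.49 and 0.47. Between the parental lines, Rela, Nfkb2 and Trim8 differed by 0.18, 0.57 and −0.03. The kinase gene Chuk, which acts upstream of NF-kB, was at 11.98, 12.14 and 12.29 against 12.00, 12.15 and 12.23, a difference of 0.00 (95% interval −0.11 to 0.12).

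Lipid and retinoid genes had a median of 0.57, with 14 of 21 called higher (66.7%, near the 67.3% of all members) and 0 lower. Scd2, a stearoyl-CoA desaturase, was not called at 0.22 (−0.06 to 0.51), and Fads2, a fatty acid desaturase, was not called at −0.27 (−0.58 to 0.03), although it was called lower without MEF-1 clonal line 5 (−0.35, adjusted p = 0.037 in limma) or without MEF-2 clonal line 3 (−0.36, adjusted p = 0.032). The receptor gene Lrp5, which serves Wnt signalling, was at 13.32, 13.68 and 13.90 against 10.75, 11.52 and 12.74 and differed by 2.06 ± 0.25 (SE), a value chosen after it was seen.

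Cytoskeletal, adhesion and matrix genes ran from −1.41 to 1.65, with 15 of 24 called higher (62.5%, against 67.3% of all members), 4 lower (16.7%, against 7.03%) and a median of 0.49. Acta2 and Pdlim1, described above, were among the 4 called lower. Efemp2, the elastic fibre protein fibulin-4, was at 15.42, 15.55 and 15.63 against 14.33, 14.41 and 14.58, a difference of 1.12 ± 0.05 (SE, 2.18-fold), although its exons overlap those of Mus81 and it was chosen after its value was seen. Of the signalling and transcription factor genes, 11 of 20 were called higher (55.0%, against 67.3% of all members) and 0 lower, with a median of 0.40 between the clonal lines. Their parental median was 0.04. Glis3, a zinc finger factor, rose by 0.77 between the clonal lines with −0.11 between the parental lines, and Gnaq, a G protein subunit, rose by 0.55 with 0.34. Leaving out a single line brought 1 gene called lower to the signalling group (without MEF-1 clonal line 7 or MEF-2 clonal lines 1, 3 or 6).

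Genes of chromosome segregation, DNA replication and repair had a median of 0.085 between the clonal and 0.288 between the parental lines. Of 22 measured, 9 were called higher (40.9%, against 67.3% of all members), 5 lower (22.7%, against 7.03%) and 8 not, and 13 were called below their chromosome (59.1%, against 29.9%). Smc3, a core subunit of cohesin, had medians of 13.78 and 13.44 and rose by 0.32 ± 0.04 (SE) without overlap of the sets, and Smc5, of the SMC5/6 repair complex, rose by 0.73. The 5 called lower were Cdca5, the cohesin regulator sororin (−0.74), Kif11, the motor of the bipolar spindle (−0.59), Hells, a chromatin remodeller (−0.48), Incenp, a chromosomal passenger (−0.47), and Fen1, the flap endonuclease of replication (−0.28).

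All 5 had a parental difference above 0, at 0.28, 0.38, 0.33, 0.12 and 0.21 in the same order. Kif11 was at 11.02, 11.80 and 12.72 in the MEF-1 clonal and 11.97, 12.35 and 12.54 in the MEF-2 clonal lines, with 12.95 and 12.57 in the parental lines. The sets overlapped, and MEF-1 clonal line 5 was the highest of its set, as it was in all 5 of these genes. Over the lines left out in turn, the number of this group called lower ran from 3 (without MEF-1 clonal line 3 or without MEF-2 clonal lines 2, 5 or 7) to 7 (without MEF-1 clonal line 5), and it was 3 with the parental lines added. Without the members whose exons overlap another gene, 12 of the group were left with a median of −0.11, of which 4 were called higher and 4 lower. Without all members that overlap another gene, 8 were left with a median of 0.21, of which 4 were called higher and 2 lower. How fast the lines were dividing at harvest was not measured, and its part in these values was not tested.

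**Figure D5:**
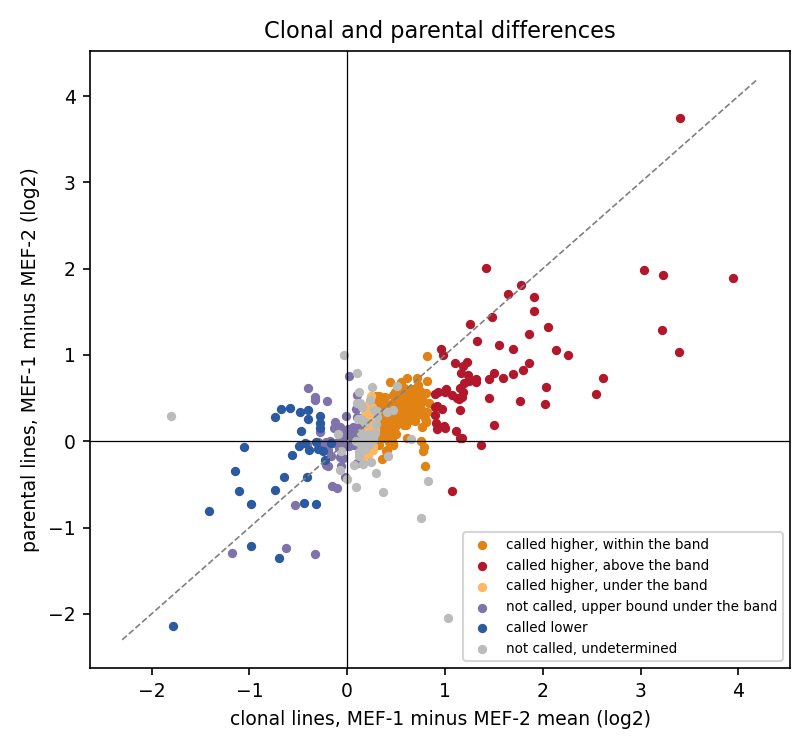
Difference of MEF-1 minus MEF-2 (log2) for each of the 455 members, between the clonal means (horizontal) and between the single parental libraries (vertical), coloured by class. Most genes lie in the upper right corner (336 genes above 0 in both), the dashed line marks equal values, and 28 genes, among them some called lower in the clones, are above 0 between the parental lines only.

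Clonal and parental differences moved together across the members. Over the 455 genes the Pearson r was 0.695 and the Spearman rho 0.627, and over the genes of the other autosomes r was 0.768. Each clone was grown from its parental line, so that these values are not independent of each other. Both differences were above 0 in 336 members and at or under 0 in 50, while 41 members were above 0 between the clonal and 28 between the parental lines alone. The parental difference was within the band for 175 members and above it for 27.

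Subunits of complexes on chromosome 19 were set beside their partners encoded elsewhere, where 28.8% of all genes tested were called higher and 30.6% lower. Eif3a (0.08) stood beside 13 other eIF3 genes with a median of −0.21, of which 0 were called higher and 9 (69.2%) lower in limma. Eef1g (0.03) stood beside 5 genes of eEF1 with a median of −0.26, 1 called higher and 2 lower. Sf3b2 (0.29) stood beside 6 SF3b genes, 0 called higher and 2 lower, with a median of −0.11, and the most negative of these was Sf3b6 on chromosome 12 (−0.90). Between the parental lines the partners had medians of −0.06 for eIF3, 0.06 for eEF1 and −0.12 for SF3b.

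Of the respiratory complex I subunits, Ndufv1, Ndufs8 and Ndufb8 differed by 0.10, 0.12 and 0.22, the last being called higher, and the 32 subunits elsewhere had a median of −0.04, with 8 (25%) called higher and 6 (18.8%) lower. For the DNA polymerases alpha and delta, Pola2 was at 0.10 and Pold4 at 0.40, and the 6 partners elsewhere had a median of −0.50, with 0 called higher and 4 (66.7%) lower. Between the parental lines these partners had a median of 0.05 and Pola2 a difference of 0.54. The cohesin partners elsewhere (11 genes) had a median of −0.03, with 3 called higher and 3 lower, and the 8 partners of NF-kB and its kinases had a median of 0.16, with 2 called higher and 1 lower. Parental medians of the partners were 0.15 for complex I, 0.06 for cohesin and 0.05 for NF-kB and its kinases.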

How the data were processed

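Total RNA-sequencing of 16 lines was used (2 parental lines, 7 clonal lines of each). Per the labels, the authors trimmed reads with Trim Galore 0.6.0, quantified transcripts with Salmon 1.5.2 on mm10 and made rlog values with DESeq2 1.24.0. The authors deposited these as log2 values scaled by size factors and shrunken towards the mean of each gene. How transcripts were summed into genes, the strand setting, and whether rlog was run blind, are not given in the sources used here. Depth is unknown, so no counting interval is given.

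Of 54453 genes, 54200 were found in GENCODE release 21 (mm10, 1-based coordinates). The middle value of the 19 autosome medians was subtracted from each line. Differences of 7 against 7 clonal lines were fitted with limma 3.58.1 (R 4.3.3, trended prior, 95% intervals unadjusted) over 12968 protein-coding genes with a mean rlog of 4 or more, and again after subtraction of each chromosome's median per line (12944 genes, chromosomes with at least 20). Parental lines stayed out of both fits. Line medians were compared by exact permutation (Python 3.11.15, scipy 1.17.1). The fits were also run on simulated data with independent noise in each gene, so that effects shared by the genes of a line were not covered.

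Named genes are the 8 with the highest mean within the band, the 6 largest differences in each direction among calls, the 6 highest means among genes with a bound under the band and not called lower, the gene at the median, the first and last gene, the 3 highest means of each list and the chromosome 19 subunits of complexes. A few genes that meet this rule are not reported here. Others were chosen after their values were seen. The members, lists and tests were chosen with earlier results of these data known. The alternatives were other centring, floors, variance priors, gene sets, a replicate block, the parental lines added and each line left out. Of the listed genes, 2 (Pc and Atp5md) were not matched by name.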

Additional observations from a re-analysis of the deposited data

Results flagged for a closer look

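In 100 sets of 7 clonal lines (named genes and the chromosome median in each set), 5 had a line far from the others by Dixon's criterion, where chance gives about 1 in 20, or 5. In the MEF-1 clonal lines these were Sh3pxd2a in line 1 (15.12, the nearest line at 15.43), Slc3a2 in line 2 (14.38, nearest 14.87) and Csf2ra in line 5 (9.66, nearest 10.05), each the lowest of its set. In the MEF-2 clonal lines these were Pyroxd2 in line 6 (5.39, nearest 4.77) and Gda in line 4 (2.93, nearest 2.70), each the highest of its set.

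Of 50 results set against the parental line of the same set, 2 moved in opposite directions in every clone of the sets. The chromosome 19 median was above its parental line in all MEF-1 clonal lines (mean 0.0739) and below it in all MEF-2 clonal lines (mean −0.0383). Rela did the same, with means of 0.199 and −0.0484. These differences were not tested, and each rests on 1 parental library per set.

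Genes of chromosome 19 that are not protein-coding were outside the comparisons above. The 64 of them with a mean rlog of 4 or more had a median difference of 0.343 between the clonal lines and 0.226 between the parental lines, and 51 were above 0 between the clonal lines. The line medians were 0.210 ± 0.0860 over the MEF-1 clones and −0.194 ± 0.125 over the MEF-2 clones (SD, n = 7 each, exact permutation test, two-sided, p = 0.000583). This p is again the smallest that the 3432 splits allow. It only describes how far the lines stand apart, as the chromosome was chosen with its shift known. The nuclear RNAs Malat1 and Neat1 were higher by 1.19 and 1.10, with parental differences of 0.40 and 0.35. Of the 64 genes, 19 are antisense, and their reads were not separated here from those of their partners.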

How the results depend on the processing

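The difference of the chromosome 19 medians was 0.367 to 0.381 with each clonal line left out in turn and 0.348 to 0.439 under 11 other settings. With each line left out, 301 to 307 members were called higher, 26 to 39 lower, 179 to 190 within the band, 129 to 138 above and 125 to 135 below their chromosome, and 103 to 113 had an upper bound under the band. The parental median was 0.256 to 0.285. Counts moved by over 1.5 times where members were left out, as fewer genes were then counted. Without the members that overlap another gene (200 left), 140 were called higher, 15 lower, 86 within the band, 65 above and 54 below the chromosome, and 44 had a bound under the band. Without those whose exons overlap another gene (276 left, chosen after seeing the data), the counts were 186 higher, 21 lower, 111 within the band, 75 below the chromosome and 61 with a bound under the band. Neither chromosome median changed sign, and no call among the 51 named genes counted below was reversed. Named genes with a difference close to 0, such as Chuk, can change sign between settings. The median of the segregation, replication and repair group, 0.085, was 0.21 without the members that overlap another gene. It was −0.11 without those whose exons overlap another gene. Of 1277 repeats over 51 named genes, 1266 kept their side of the threshold and 11 gained a call, in 4 genes. These 51 are the genes named by rule. They leave out Kif11, Hells, Incenp, Fen1, and the genes chosen after their values were seen. Pum3 and Rrp12, which lost their calls without MEF-2 clonal line 2 or line 7, are also left out.

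Clones of the same number are different cells and share only a number. Their deviations correlated at −0.148 to 0.230, and 1 of 7 MEF-1 clones correlated best with its own number. With the replicate number as a block, the median difference was 0.373 (exact sign-flip permutation, p = 0.0156, the smallest that this test allows). Like the p of the main comparison, it only describes how far the lines stand apart. With this block in limma, 302 members were called higher, 32 lower and 184 within the band. Without counts, low members could not be separated from genes without reads by depth.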
